A study of Mus musculus with 6 samples.

Results

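The genes of the cytosolic ribosome's own proteins were examined in mouse heart muscle cells in which the transcript of Gdf11, the gene of a secreted TGF-beta relative, had been lowered. A row of the expression table was taken when its biotype was protein coding and its name began with Rpl or Rps and a number, leaving out the kinase genes named Rps6k, or was Rplp0, Rplp1, Rplp2 or Rpsa. The rule itself reads names and biotypes and no measured value. It gave 94 rows of 54532. Of these, 77 were core subunit proteins (46 of the large and 31 of the small subunit), 8 were paralogs with their own gene, and 8 were protein-coding rows whose names carry the pseudogene suffix -ps. The remaining row, Rps19bp1, was caught by its name: its product binds the ribosomal protein RPS19 and is not a subunit protein. Fau and Rack1 encode parts of the ribosome and fall outside the naming rule. They are given beside the 94.

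The cells were primary ventricular cardiomyocytes of C57BL/6J mice aged 1 day. In the shGDF11 group they received short hairpin RNA against Gdf11. The control group received a vector with control hairpin RNA, named sh-nc in the sample labels and sh-Vector in the protocol. The multiplicity of infection was 200 for both, and total RNA was taken with TRIzol after 48 h. Each group had 3 libraries. The labels do not say whether these came from separate cultures, so p-values measure only the spread between the libraries, which may be technical. No untreated group was among the samples, so both groups share the exposure to a vector.

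Ribosomal proteins assemble with ribosomal RNA in the nucleolus into a small subunit, which decodes the message, and a large subunit, which forms the peptide bond. Each protein is present in one copy per ribosome, with the stalk proteins as the exception, and a surplus that finds no ribosomal RNA is degraded. In vertebrates these genes belong to the TOP class: transcription starts at a cytosine followed by an unbroken run of pyrimidines, through which the kinase mTORC1 and the protein LARP1 control how much of the messenger RNA is translated. Heart muscle cells raise ribosome production when they grow. The values here are RNA levels and carry no information on translation.

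The starts of 9 of the genes are shown because the TOP class is defined by its start. Of these 9, 8 are called higher and 1 lower below. Each line gives 10 bases before the annotated start and 20 from it, on the coding strand from 5′ to 3′, with the longest run of C and T in capitals. The sequences and positions are those of RefSeq on GRCm38.p6.
Rpl27a, chr7:109519185-109519214, plus strand: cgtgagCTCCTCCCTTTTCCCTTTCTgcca
Rpl13a, chr7:45128726-45128755, minus strand: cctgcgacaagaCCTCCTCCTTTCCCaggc
Rps26, chr10:128626487-128626516, minus strand: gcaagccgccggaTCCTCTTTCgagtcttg
Rps24, chr14:24490668-24490697, plus strand: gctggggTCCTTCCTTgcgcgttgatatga
Rpl12, chr2:32961702-32961731, plus strand: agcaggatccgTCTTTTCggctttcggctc
Rpl34, chr3:130730379-130730408, minus strand: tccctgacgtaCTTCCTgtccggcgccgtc
Rps23, chr13:90923112-90923141, plus strand: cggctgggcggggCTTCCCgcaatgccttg
Rpl36a, chrX:134585644-134585673, plus strand: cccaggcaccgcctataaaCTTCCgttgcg
Rpl41, chr10:128549149-128549178, minus strand: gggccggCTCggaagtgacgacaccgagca
The run reached 20 bases in Rpl27a and 14 in Rpl13a, 9 in Rps26 and Rps24, 7 in Rpl12, 6 in Rpl34 and Rps23, 5 in Rpl36a and 3 in Rpl41. Rpl10a, Rpl22, Rpl3l and Rpl4, also called higher, have runs of 7, 3, 5 and 6 and are not shown. RefSeq's start can lie away from the start used in the expression table. The distance was 0 for Rpl34 and Rpl36a, 16 bases for Rpl13a, 48 for Rpl27a and 137 for Rpl41. It was 153 for Rpl12, 164 for Rps23, 241 for Rps26 and 3553 for Rps24. A short run in these windows therefore says only what stands at the annotated base.

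Levels are in FPKM, fragments scaled by gene length and library depth, as the authors deposited them. Listed genes held between 15267083 and 16152910 reads per library. Gdf11 itself was at 2.76, 2.30 and 2.31 FPKM in the control libraries and at 0.614, 0.601 and 0.778 in the shGDF11 libraries, a log2 fold change of -1.34 ± 0.125 (SE) with a limma adjusted p of 0.000794. The 8 cardiomyocyte markers summed to 8104 to 8228 FPKM in control and 6203 to 6373 in shGDF11, with 1 of 8 called higher and 5 lower (2 to 4 lower when 1 library was left out). The 8 fibroblast markers summed to 291 to 346 and 368 to 386 FPKM, with 2 of 8 called higher, and the 8 endothelial markers to 67.3 to 72.8 and 47.4 to 50.8 FPKM, with 5 of 8 called lower. Of the other marker lists, 2 of 5 tested macrophage genes and 3 of 7 smooth muscle and pericyte genes were called lower, epicardial genes gave 1 higher and 1 lower of 5, S100b of the Schwann and neural list was called higher, and no erythroid gene passed the filter on low values. The smooth muscle and pericyte falls were 1 without control replicate 2 or 3 or shGDF11 replicate 1 or 3, 2 without shGDF11 replicate 2, and 1 on the TPM scale. The epicardial fall was lost without shGDF11 replicate 1 or 3, the epicardial rises were 2 without control replicate 3, and the macrophage falls were 3 without control replicate 2. No marker was at 0 in every library. The part of these shifts in the ribosomal results was not tested, and in bulk RNA fewer cells of a type and less RNA per cell cannot be told apart.

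Of the ribosomal protein genes, 15 rose and 1 fell in shGDF11. Of the 94 rows, 90 had a mean of at least 0.5 FPKM and were tested. The other 4 (Rpl10l, Rpl13a-ps1, Rpl9-ps1 and Rpl36-ps4) were listed at 0 in all 6 libraries. By limma on log2(FPKM + 0.5), 15 of 90 were called higher in shGDF11 (16.7%) at an adjusted p under 0.05 and 1 lower (1.11%), which is 17.8% called. Over all 15418 genes tested, 27.6% were called, 14.4% higher and 13.1% lower, and among protein-coding genes 30.3% were called. The share of members called higher was thus near the background, and the share called lower was below it. No test was made of that difference. On the TPM scale the share called in either direction was 27.8% of members against 25.2% of all genes. Without control replicate 3 it was 31.1% against 26.1%. In the other alternatives run, the members' share was below that of all genes. It was 23.5% against 37.5% at a mean of at least 5 FPKM, and 32.2% against 33% by limma voom on recovered reads.

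The median log2 fold change of the 90 genes was 0.13, against 0.0063 for all genes tested, with 62 above and 28 below 0. Most changes were small: 71 of 90 (78.9%) lay within 0.3 of 0 on the log2 scale, against 61.8% of all genes. In 29 members all 3 shGDF11 libraries lay above all controls and in 3 all lay below, against 23.7% and 22.2% of all genes (45.8% in either direction). The count of rises changed when a single library was left out. Without control replicate 2 there were 4, without shGDF11 replicates 1, 2 and 3 there were 4, 1 and 2, and without control replicate 3 there were 25; in these fits 10.8%, 9.17%, 8.19%, 8.83% and 13.6% of all tested genes were called higher. Without control replicate 1 there were 22, beside 14.6% of all genes. Low genes included, 5 members were called higher. The count was 24 on the TPM scale, 24 with protein-coding genes only, 26 by limma voom on recovered reads, 30 with array weights and 4 with a replicate block. In the order given these stand beside 5.29%, 16.7%, 17.8%, 16.5%, 18.2% and 10.7% of all genes. Rpl12 (higher) and Rpl34 (lower) were called under each of the 18 alternatives run. Rpl34 was the sole fall except by voom and without control replicate 3, where 3 genes were called lower, beside 16.5% and 12.5% of all genes.

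**Figure D1:**
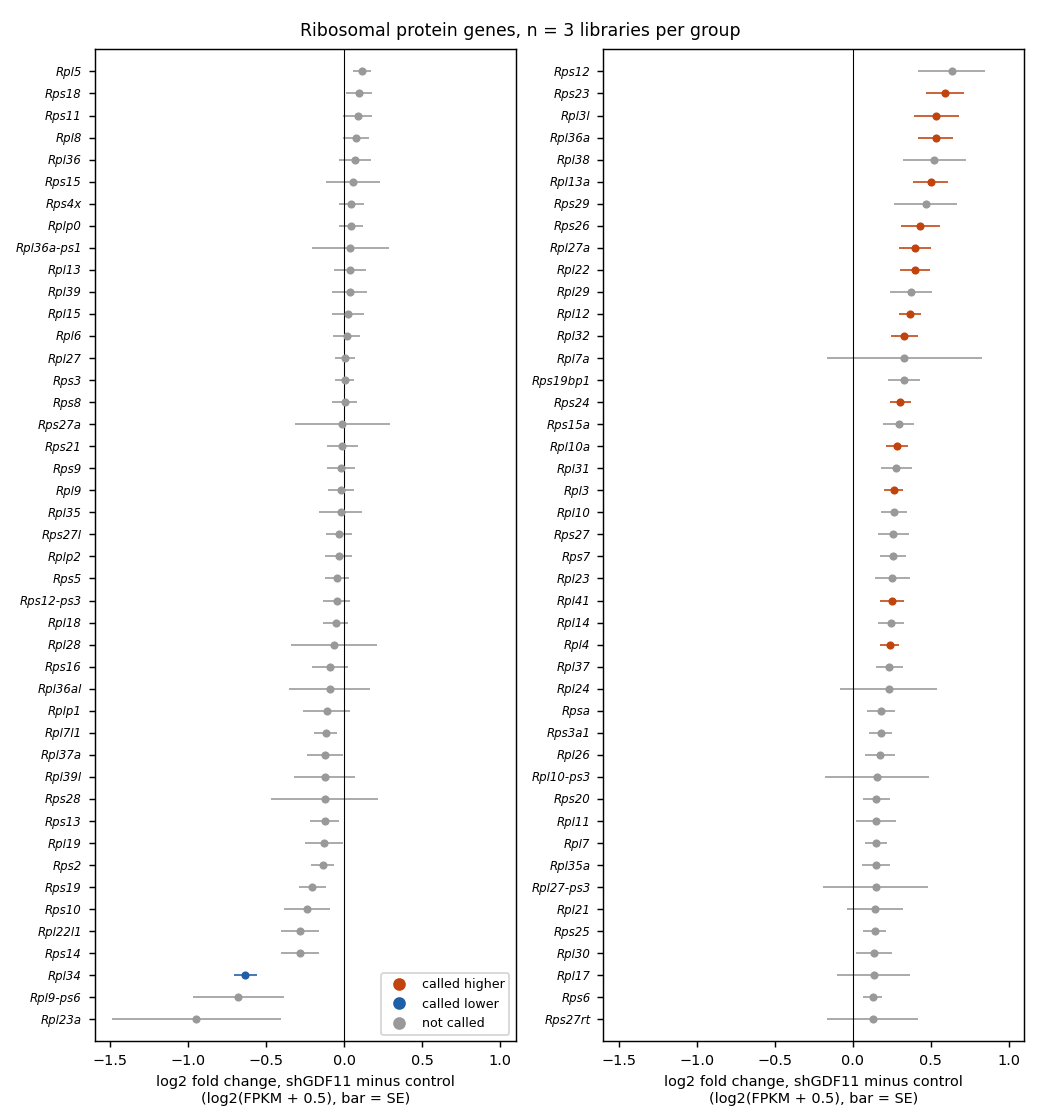
Log2 fold change of 88 of the 90 tested ribosomal protein genes, shGDF11 minus control on log2(FPKM + 0.5), with the standard error as a bar, 3 libraries per group. The 14 genes called higher that are drawn are orange and spread from Rpl4 (0.24) to Rps23 (0.59), Rpl34 is the one blue point, and Rpl23a has the widest bar.

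Of the 15 rises, 11 were core genes of the large subunit, 3 were core genes of the small subunit and 1 was the paralog Rpl3l. Of the 46 core genes of the large subunit, 11 were called higher and 1 lower, with a median log2 fold change of 0.15. Of the 31 small subunit genes, 3 were called higher and none lower, with a median of 0.086. Of these 31, 10 had no overlap upwards and 2 downwards, and of the 46 large subunit genes 17 and 1. Over all genes tested the shares without overlap were 23.7% upwards and 22.2% downwards. Whether the subunits differ was not tested. Without control replicate 2 the counts of rises were 3 and 1, and without shGDF11 replicates 1, 2 and 3 they were 2 and 2, 1 and 0, and 1 and 1. Without control replicate 3 they were 16 and 8, and without control replicate 1 the small subunit count was 8.

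In the large subunit, the rise called under all 18 alternatives was that of Rpl12, whose product sits at the base of the stalk where the translation factors dock. Rpl12 (chr2:32961559-32965345, plus strand, GRCm38) was at 81.3, 75.6 and 87.03 FPKM in control replicates 1, 2 and 3 and at 109.5, 102 and 104 in shGDF11. Every shGDF11 library lay above every control. The means were 81.3 ± 5.72 and 105 ± 4.09 FPKM (SD over n = 3 libraries per group, here and wherever ± follows a mean level), a log2 fold change of 0.37 ± 0.0695 (SE) with a limma adjusted p of 0.00937.

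Rpl36a, a protein of the exit site of the large subunit, had the largest change among its core genes called higher. It was at 99.01, 75.9 and 96.8 FPKM in control and 119.9, 138 and 133 in shGDF11, a log2 fold change of 0.53 ± 0.114 with a limma adjusted p of 0.0148. Control replicate 2 was the low control, and the groups did not overlap. Rpl36a kept its call in 16 of 18 alternatives and lost it without shGDF11 replicate 2 or 3.

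Rpl13a, known also for a role outside the ribosome in silencing of inflammatory transcripts, was at 20.9, 15.1 and 16.7 FPKM in control and at 24.2, 25.4 and 24.9 in shGDF11. Its log2 fold change was 0.50 ± 0.114, limma adjusted p 0.0188. The 3 shGDF11 values were close together and the controls spread. The gene holds 5 small RNA genes, Snord32a, Snord33, Snord34, Snord35a and Mir5121, and 35.4% of its exon bases lie under another gene on the same strand, so its level is less certain than that of Rpl12. The call was lost without any one of the shGDF11 libraries.

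Rpl27a was at 101, 87.8 and 116 FPKM in control and 130.4, 139 and 131 in shGDF11 (log2 fold change 0.40, limma adjusted p 0.0279). Rpl22, which has a close paralog described below, was at 55.4, 51.4 and 65.5 FPKM in control and 76.1, 77.97 and 72.4 in shGDF11 (0.40, limma adjusted p 0.0207). In both genes control replicate 2 was the lowest library and control replicate 3 the highest control, and the shGDF11 libraries lay closer together. Rpl32 rose from 279 ± 28.02 to 350.2 ± 15.8 FPKM, with a log2 fold change of 0.33.

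Further rises of the large subunit were smaller. Rpl10a, at the mobile L1 stalk through which the emptied transfer RNA leaves, went from 99.3 ± 7.17 to 121 ± 4.54 FPKM (0.28). Rpl3, whose product reaches to the peptidyl transferase centre, was at 194, 188 and 206 FPKM in control and 243, 232 and 231 in shGDF11 (0.26, limma adjusted p 0.0194). Rpl4, which lines the exit tunnel, went from 365 ± 16.4 to 430.1 ± 9.54 FPKM (0.24). Rpl41, the shortest ribosomal protein, had the highest level of the family and stood at 769, 700.4 and 806 FPKM in control and 919, 868 and 923 in shGDF11 (0.25), with a limma adjusted p of 0.0497 at the edge of the threshold. Its call held in 8 of 18 alternatives.

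Many of these calls changed when a single library was left out. Without shGDF11 replicate 2, Rpl12 and Rpl34 alone were called among the 90. Without replicate 3 Rps23 joined them, and without replicate 1 Rps23, Rpl36a and Rps24. Without control replicate 2 the called genes were Rpl12, Rpl13a, Rpl34, Rpl36a and Rps23. Without control replicate 1, Rpl27a, Rpl3l and Rps26 lost their calls, and without control replicate 3, Rpl10a and Rpl3l did.

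Rpl34, a protein of the large subunit, was the one member that fell. The gene (chr3:130726831-130730398, minus strand, GRCm38) was at 45.4, 44.1 and 51.1 FPKM in control and 29.2, 31.8 and 28.99 in shGDF11. The lowest control lay well above the highest shGDF11 library. The mean dropped from 46.9 ± 3.70 to 29.98 ± 1.55 FPKM, a log2 fold change of -0.63 ± 0.0750 with a limma adjusted p of 0.00161. Of the 50-base words in its transcripts, 7.78% also occur in transcripts of other genes, against a median of 23.6% over the 94 rows. No small RNA gene lies inside it.

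Of the 3 genes called higher in the small subunit, Rps23, a protein of the decoding centre, had the largest change. It was at 239.9, 221 and 301 FPKM in control and 364, 413 and 361 in shGDF11. The groups did not overlap, and shGDF11 replicate 2 was the highest library. The log2 fold change was 0.59 ± 0.122, with a limma adjusted p of 0.0134, and the call held in 17 of 18 alternatives. Rps26, which lies at the exit of the messenger RNA channel, was at 296, 314 and 415 FPKM in control and 452, 471 and 447 in shGDF11 (0.43, limma adjusted p 0.0423). Control replicate 3 lay close to the shGDF11 libraries, and the call held in 9 of 18 alternatives. Rps24 was at 61.4, 53.9 and 56.6 FPKM in control and 67.2, 71.7 and 73.8 in shGDF11 (0.31, limma adjusted p 0.0186).

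Rps12 had the largest positive log2 fold change of the family (0.63) and was not called. Its controls ran from 61.0 to 112.6 FPKM and its shGDF11 libraries from 114.8 to 146.2, so the groups did not overlap but control replicate 3 nearly reached them, and the limma adjusted p was 0.0657. Rps29 was at 139, 85.1 and 79.5 FPKM in control and 135, 143 and 129.6 in shGDF11, and here control replicate 1 lay within the shGDF11 range (0.47, limma adjusted p 0.128). Without the control that lay near the shGDF11 libraries, replicate 3 for Rps12 and replicate 1 for Rps29, each was called higher.

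**Figure D2:**
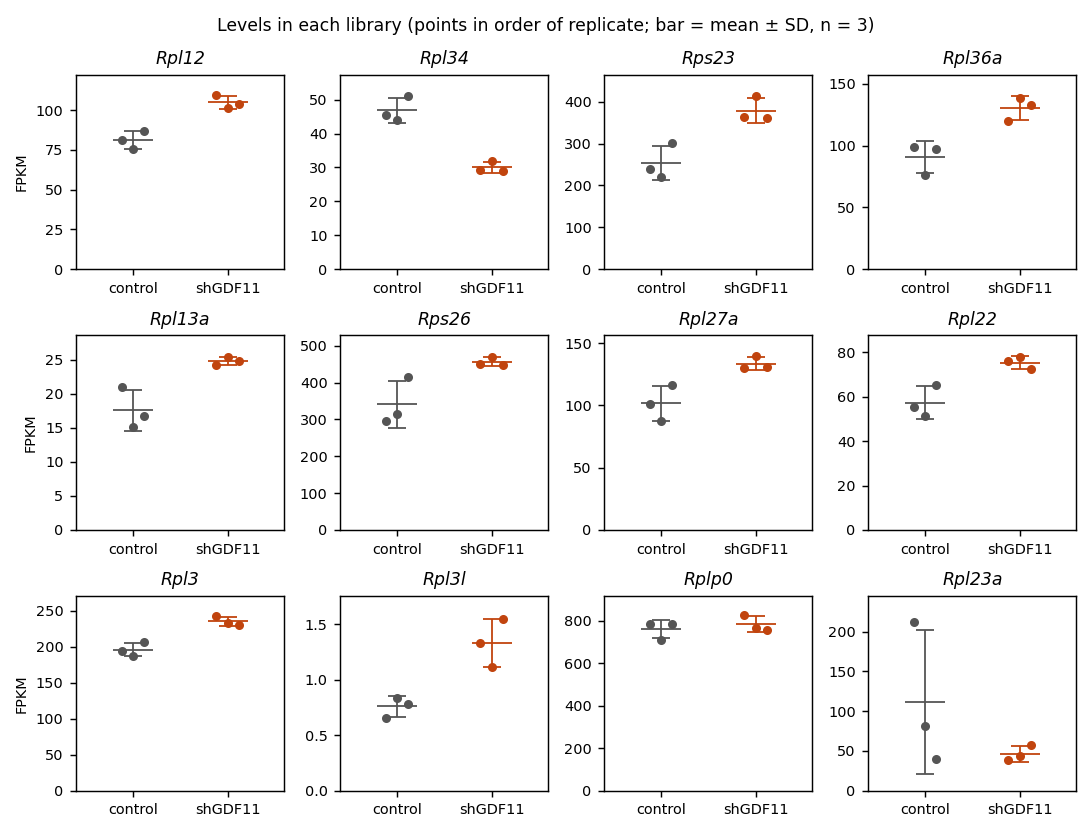
FPKM of 12 ribosomal protein genes in each library (points, in order of replicate) with the mean and SD of the 3 libraries per group. The groups separate in the panels of called genes from Rpl12 to Rpl3l, overlap in Rplp0, and in Rpl23a control replicate 1 stands at 212 FPKM far above the others.

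The stalk of the large subunit, made of the scaffold Rplp0 and the pairs of Rplp1 and Rplp2 that recruit elongation factors, held 1 called gene of 4, Rpl12. Rplp0 was at 785, 711 and 784 FPKM in control and 827, 766 and 757 in shGDF11, Rplp1 at 820.2, 609 and 597 in control and 719, 559 and 589.7 in shGDF11, and Rplp2 at 105, 107 and 128 in control and 108, 109 and 113 in shGDF11. The values overlapped in all 3 genes. Their log2 fold changes were 0.044 ± 0.0751, -0.11 ± 0.150 and -0.036 ± 0.0842, and none was called. Rpl41, Rplp0 and Rplp1 had the highest mean FPKM of the family over the 6 libraries.

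Rps6, the substrate of the S6 kinases and a common readout of mTORC1, was at 335, 325 and 356 FPKM in control and 369.9, 377 and 363 in shGDF11. All shGDF11 libraries lay above the controls, by little: the log2 fold change was 0.13 ± 0.0618 and the limma adjusted p 0.170. These are levels of its RNA, and phosphorylation was not measured.

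Rpl5 and Rpl11, which with 5S ribosomal RNA form the particle that restrains the p53 regulator MDM2 when ribosome assembly is disturbed, and Rpl23 and Rpl26, which also bind MDM2, were not called. Rpl5 was at 133, 134 and 142 FPKM in control and 145, 153 and 145 in shGDF11 (log2 fold change 0.11). Rpl11 was at 92.9, 64.1 and 79.4 FPKM in control and 85.04, 88.7 and 85.9 in shGDF11 (0.15). The values for Rpl23 and Rpl26 were 0.25 and 0.17. All 4 lay above 0, and the limma adjusted p ran from 0.133 to 0.416.

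Of 7 genes in which mutations are known to cause Diamond-Blackfan anaemia, a failure of red cell production, Rps24 and Rps26 rose. The other 5 were not called. Among them, Rps7 and Rpl35a had log2 fold changes of 0.26 and 0.15, and Rps19 and Rps10 of -0.21 and -0.24. Rps19 was at 61.1, 55.1 and 51.2 FPKM in control and 51.9, 44.7 and 48.2 in shGDF11, with an overlap of the groups. Rps7 was at 153, 178 and 184 FPKM in control and 210.0, 208 and 198 in shGDF11 with no overlap and a limma adjusted p of 0.0559, just outside the threshold.

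Of 3 genes whose products have been linked to the translation of particular messages, Rpl10a rose, as given above. Rpl38, known from mouse skeletal patterning, was at 233, 131 and 183 FPKM in control and 230.2, 289 and 251 in shGDF11 (0.52, limma adjusted p 0.0960). Control replicate 1 lay among the shGDF11 values. Rps25, needed by several viral internal ribosome entry sites, was at 0.14 on the log2 scale and not called.

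None of 4 genes of the head and platform of the small subunit was called. Rpsa, which also gives the laminin receptor, had a log2 fold change of 0.18, Rps3 of 0.0036, Rps2 of -0.14 and Rps14 of -0.29. Rps14 was at 351, 352 and 294 FPKM in control and 316, 238 and 267 in shGDF11: control replicate 3 lay below shGDF11 replicate 1. Rps2 was at 648, 585 and 589 FPKM in control and 584, 527 and 544 in shGDF11, each shGDF11 library below each control, with a limma adjusted p of 0.213. Rps27a, made as a fusion with ubiquitin, was at 54.5, 52.8 and 122 FPKM in control and 69.9, 73.6 and 67.05 in shGDF11. Control replicate 3 alone was high, and without it the log2 fold change went from -0.011 to 0.38 and was called.

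Some paralogs, though not all, replace a core protein in certain ribosomes or tissues, which RNA levels do not show. Rpl3l, the form of Rpl3 made in heart and skeletal muscle, was at 0.658, 0.840 and 0.784 FPKM in control and 1.33, 1.11 and 1.55 in shGDF11, on 17 to 41 reads per library. It rose by 0.54 ± 0.144 on the log2 scale with a limma adjusted p of 0.0327, and lost its call without any one of the 6 libraries. Its transcripts share no 50-base word with another gene. Rpl3, the far more abundant form on the FPKM scale, rose by 0.26. Beside the rise of this muscle paralog stands the lower sum of the cardiomyocyte markers given above, whose part in it was not tested.

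Rpl22 rose while its paralog Rpl22l1 was at 4.29, 3.08 and 3.61 FPKM in control and 2.63, 2.92 and 3.15 in shGDF11, a log2 fold change of -0.28 ± 0.125 that was not called (limma adjusted p 0.137). The difference between the 2 responses was not tested. Rpl36a rose, and Rpl36al, near the filter at 0.904 and 0.802 FPKM, overlapped between groups. In the pair Rps27 and Rps27l the log2 fold changes were 0.26 and -0.032, in Rpl7 and Rpl7l1 0.15 and -0.12, and in Rpl39 and Rpl39l 0.034 and -0.12, with no call. Rpl10 was at 253, 255 and 294 FPKM in control and 338, 324 and 299 in shGDF11 (0.26, limma adjusted p 0.0563), and its paralog of the testis Rpl10l was listed at 0. Rps4x, the X-linked form, was at 0.047. Of the 7 tested paralogs, Rpl3l was called and 5 had log2 fold changes below 0.

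None of the 5 tested rows with the suffix -ps was called. Rpl9-ps6 had the second lowest log2 fold change of all 90 genes, -0.68 ± 0.291, from 61.5, 44.3 and 30.4 FPKM in control and 31.6, 19.1 and 32.8 in shGDF11, and the groups overlapped. All 50-base words of Rps12-ps3 occur in other genes, so its reads cannot be assigned with certainty.

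Single control libraries stood apart in some members, and their values set the error of these genes. Rpl23a was at 212, 81.02 and 39.8 FPKM in control replicates 1, 2 and 3 and at 38.3, 43.1 and 57.1 in shGDF11, a log2 fold change of -0.95 ± 0.542 that was not called (limma adjusted p 0.236). Without control replicate 1 it was -0.32, and without control replicate 3 it was -1.52 and called. Rps28 was at 70.5, 31.8 and 24.96 FPKM in control, 2.49 times the mean of the other controls in replicate 1, and at 34.4, 36.5 and 34.3 in shGDF11. Rpl7a was at 67.5, 25.1 and 31.9 FPKM in control and 58.5, 24.1 and 76.6 in shGDF11, so that both groups held high and low libraries, and Rpl17 at 162, 86.8 and 118 FPKM in control and 159, 108 and 127 in shGDF11.

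Control replicate 1 also had 0.255% of its reads in small RNA genes, against 0.0185% to 0.0708% in the other 5 libraries. The part of this in the ribosomal values was not tested. For Rpl23a, 59.7% of the exon bases lie under a gene on the other strand and 80.8% of its 50-base words occur elsewhere. Control replicate 2 was the lowest control for 51 of the 90 members, against 29.4% of all genes tested. Within groups, the median SD of the log2 values over members was 0.157 in control and 0.0770 in shGDF11, and over all genes tested 0.140 and 0.0936.

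**Figure D3:**
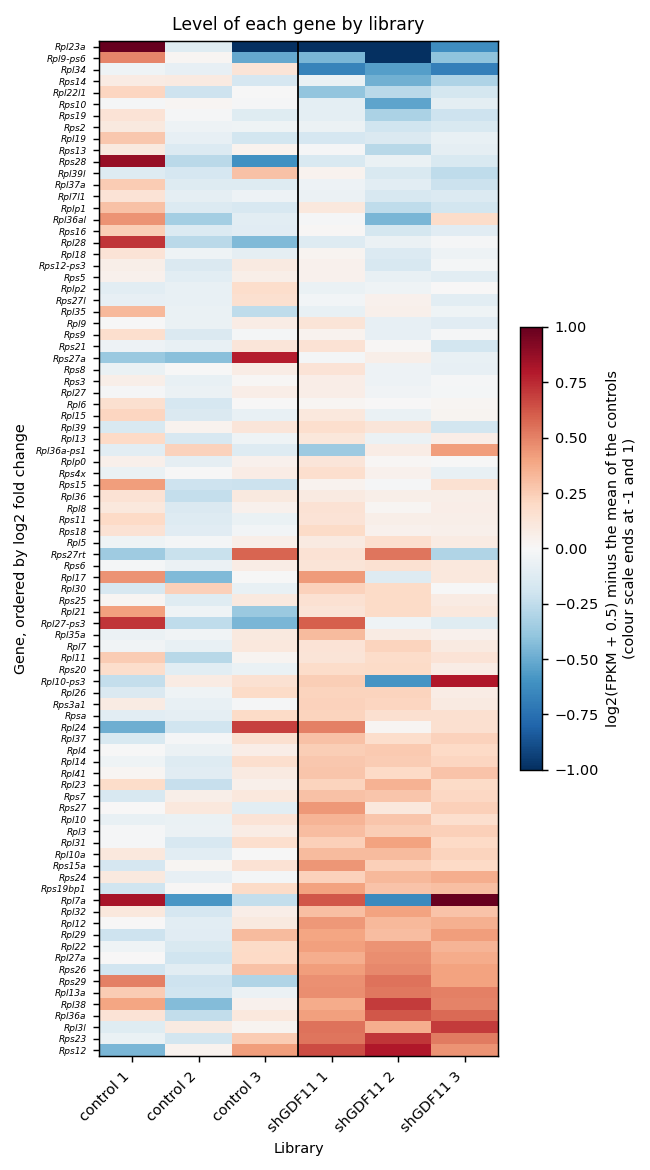
Level of 88 of the 90 tested genes (rows, ordered by log2 fold change) in each of the 6 libraries, as log2(FPKM + 0.5) minus the mean of the 3 controls, on a colour scale that ends at -1 and 1. Control replicate 2, the lowest control for 51 of the 90 genes, is mostly blue, and control replicate 1 is red in Rpl23a and Rps28. The 3 shGDF11 columns differ in Rpl7a, which was at 58.5, 24.1 and 76.6 FPKM.

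Summed over the 94 rows, ribosomal protein genes took 2.76%, 2.49% and 2.74% of the reads in control replicates 1, 2 and 3 and 2.98%, 2.87% and 2.83% in shGDF11. On the FPKM scale, which divides by gene length, the shares were 4.71%, 4.57% and 5.07% in control and 5.63%, 5.48% and 5.42% in shGDF11. In both measures each shGDF11 library lay above each control, with means of 2.66% ± 0.152 and 2.89% ± 0.0803 of reads. The summed FPKM themselves were 16579, 14445 and 16012 in control and 17440.0, 16823 and 16526 in shGDF11, and these overlap. The FPKM total of all genes was highest in control replicate 1, 351657 against 304770 to 316233 in the other libraries, so a share of FPKM and a sum of FPKM order the libraries differently. Small RNA genes held 42549, 11168 and 3319 FPKM of the total in control replicates 1, 2 and 3. In shGDF11 they held 3572, 2331 and 3129. A single miRNA row was at 40996 FPKM in control replicate 1. The total is the divisor of the FPKM shares and of TPM, and the part of these rows in those results was not tested. No test was made on these sums.

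**Figure D4:**
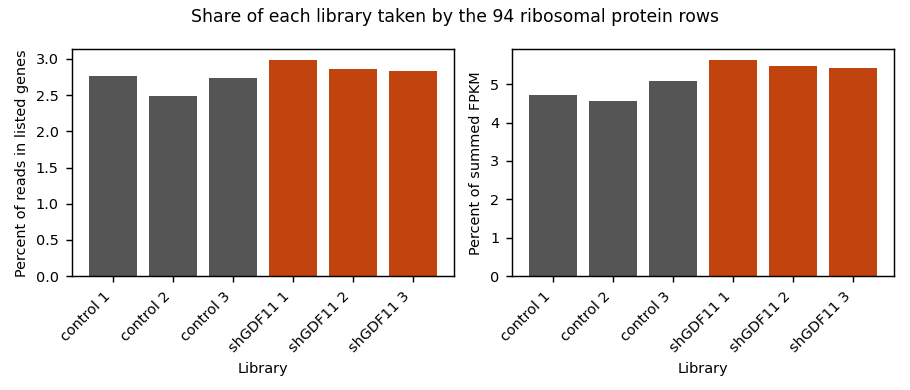
Share of each library taken by the 94 ribosomal protein rows, as percent of reads in listed genes (left) and percent of summed FPKM (right), 1 bar per library. The shGDF11 bars, 2.83% to 2.98% of reads, all stand above the control bars, 2.49% to 2.76%.

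The rows share features of the annotation that bear on their levels. The table's gene length had a median of 1657 bases, and the principal transcript of GENCODE M21 one of 846.5, so FPKM on the listed length is lower than per length of the messenger RNA, by an amount that differs between genes. Ranks by either scale were similar across 89 members (Spearman's rho 0.88, as a description). Rpl24 and Rps10, at 0.893 and 1.55 FPKM in control, lay far below the other core proteins, and 47.0% and 20.6% of their exon bases lie under another gene on the same strand. Rpl24 was at 0.432, 0.641 and 1.61 FPKM in control and 1.36, 0.830 and 0.963 in shGDF11. How such overlaps were counted was not stated in the labels or the file header.

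Of the 94 rows, 32 hold small RNA genes on their own strand, 66 in all, mostly small nucleolar RNAs that guide the modification of ribosomal RNA. Among these 32, 7 were called higher and none lower, and among the 58 other tested rows 8 were called higher and 1 lower. Across the 90 genes, Spearman's rho with the fold change was 0.066 for length, 0.10 for level and -0.016 for the share of 50-base words found in other genes. These correlations are a description across genes, which share the same 6 libraries and are not independent.

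Promoters were available for 66 of the 94 rows, taken as the 300 bases from 250 before to 50 after the RefSeq start. The motif CCGGAAG, bound by factors of the ETS family, stood on either strand in 25 of 66 (37.9%), against 8.86% of 32851 windows of the same length. CTTTCC stood in 33 of 66 against 26.6%, AAGATGGC, the motif of YY1, in 7.58% against 2.75%, and TATAAA in 9.09% against 13.6%. CACGTG, the E-box bound by MYC among others, was in 7.58% against 7.15%. In the 30 bases around the start, a run of at least 8 pyrimidines was in 21 of 66 (31.8%), against 11.2% of all windows, with a median longest run of 6 against 4. The 66 windows hold 1 start per gene, whereas the 32851 hold every listed start. Over all 78 member starts, CCGGAAG was in 34.6%, CTTTCC in 51.3% and AAGATGGC in 10.3%. There TATAAA was in 8.97%, CACGTG in 10.3% and the run in 30.8%.

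The promoter features were found among called and uncalled genes. Of 12 called higher with a promoter, 3 had CCGGAAG and 4 the pyrimidine run. Of 52 not called, 22 and 17 had them. Rpl27a, with the run of 20, and Rpl41, with a run of 3 in this window, were both called higher, and Rpl34 had a run of 6. A match is a description of letters in the window and no evidence of binding.

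The other genes of the ribosome and of translation were read by the same test. Fau and Rack1 were not called: Fau was at 448 ± 46.1 FPKM in control and 459 ± 24.4 in shGDF11, and Rack1 at 122 ± 4.35 and 131 ± 3.33. Of 27 other transcripts of the TOP class, 5 were called higher and 2 lower. They included Eef1a1, the elongation factor that delivers transfer RNAs, from 1873 ± 108 to 2432 ± 22.3 FPKM (log2 fold change 0.38). Nap1l1, a histone chaperone, rose from 35.9 ± 2.08 to 54.6 ± 1.88 FPKM (0.60), Pabpc1, the poly(A) binding protein, from 104 ± 5.20 to 143 ± 6.47 (0.46) and Gas5, a host of small nucleolar RNAs, from 16.9 ± 1.83 to 23.3 ± 0.928 (0.45). Eef1a1 lost its call without any one of the shGDF11 libraries.

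Most calls among the factors that build ribosomes were falls. Of 57 tested genes for small subunit assembly, 1 was called higher and 11 lower, with 42 log2 fold changes below 0 and a median of -0.11. Nop9 fell from 13.5 ± 0.754 to 9.004 ± 0.487 FPKM (-0.56), Tbl3, of the small subunit processome, from 8.06 ± 0.526 to 5.63 ± 0.223 (-0.48) and Tsr3, a modifying enzyme of 18S ribosomal RNA, from 15.2 ± 1.84 to 9.84 ± 0.683 (-0.59). Of 58 for the large subunit, 1 was called higher and 10 lower, with 42 below 0 and a median of -0.13. Noc2l fell by 0.55 on the log2 scale, Mybbp1a from 25.04 ± 0.760 to 19.4 ± 0.492 FPKM (-0.36) and Eif6, which keeps the new large subunit from joining too early, from 33.2 ± 3.38 to 22.04 ± 1.81 (-0.58). The shares called lower, 19.3% and 17.2%, stand beside 13.1% of all genes. The small subunit count of falls was 6 of 57 without control replicate 2. It was 7, 6 and 5 without shGDF11 replicates 1, 2 and 3, and 4 after rescaling to TPM. In the order given, 9.06%, 8.49%, 7.02%, 7.59% and 8.53% of all genes were called lower in these fits. The large subunit count was 6 without shGDF11 replicate 2. On the TPM scale its calls were 3 higher and 7 lower, with a median of -0.048.

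The particles that guide modification of ribosomal RNA had 2 of 14 tested genes higher and 3 lower: Nolc1 (-0.56), Naf1 (-0.48) and Ruvbl2 (-0.53) fell. Of 15 RNA polymerase I genes, which serve transcription of ribosomal RNA, 4 were called higher and 2 lower. Polr1a, its largest subunit, rose from 5.62 ± 0.0598 to 7.49 ± 0.515 FPKM (0.38) and the initiation factor gene Rrn3 from 19.95 ± 0.605 to 24.4 ± 0.656 (0.28), while Polr1c, shared with RNA polymerase III, fell (-0.41). Without shGDF11 replicate 1, 2 or 3 the counts of rises were 2, 1 and 3, and without control replicate 2 there were 2. The falls were 0 without any one of the shGDF11 libraries, where Polr1c lost its call, 1 without control replicate 2 and 3 without control replicate 3. Of 18 tested hosts of small nucleolar RNAs, 3 were called higher, Snhg8 (0.52) and Gas5 among them, and Snhg11 fell (-0.77).

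Of 45 initiation factor genes, 4 were called higher and 6 lower, among them Eif2b2, of the exchange factor for eIF2 (-0.53). Of 20 elongation and termination genes, Eef1a1 was called higher and 3 lower, including Eef2k, the kinase that slows elongation (-0.34), and Eef1a2, the muscle and neuronal form of Eef1a1, from 231 ± 35.8 to 172 ± 6.42 FPKM (-0.41). Of 20 chaperones and import factors of ribosomal proteins and nascent chains, 2 were called higher, with Btf3 (0.35), and 4 lower, with Nacad (-0.94) and Lrrc58 (-0.49). Of 20 genes of ribosome quality control and hibernation, 5 were called higher and 2 lower: Habp4 (0.48), Ccdc124 (0.79) and Rnf10 (0.55) rose. The counts of these short lists also changed with the libraries used. When 1 library was left out, rises ran over 3 to 7 for the TOP transcripts, 0 to 2 for the modification particles, 2 to 4 for the hosts, 2 to 5 for initiation, 0 to 3 for elongation, 0 to 4 for chaperones and 3 to 5 for quality control. In each of these 7 lists no omission gave fewer rises than that of shGDF11 replicate 2. The falls ran over 0 to 3, 3 to 5, 1 to 2, 4 to 6, 1 to 5, 2 to 6 and 0 to 2 in the same order.

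Upstream of the family, 8 of 39 tested genes of mTORC1, MYC and the control of TOP translation were called higher and 6 lower. Rhebl1, a relative of the mTORC1 activator Rheb, fell from 2.90 ± 0.240 to 0.841 ± 0.220 FPKM (-1.35). Max, the partner of MYC, rose from 10.4 ± 1.03 to 16.98 ± 0.387 (0.69), and Mxi1, which competes for Max, fell from 14.6 ± 1.05 to 9.47 ± 0.255 (-0.60). Without shGDF11 replicate 1, 2 or 3 the list's rises were 5. Of 17 genes of p53 and ribosomal stress, 3 rose and 7 fell: Ccng1 went from 166 ± 15.95 to 392 ± 8.94 FPKM (1.24) and Sesn1 from 10.96 ± 0.798 to 18.2 ± 1.15 (0.70), whereas Cdkn1a went from 139 ± 10.002 to 84.01 ± 4.81 (-0.72). Targets of p53 thus stood on both sides. Without shGDF11 replicate 2 the list's falls were 3.

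Among the ribosomal proteins of the mitochondrion, a separate set of genes, 0 of 77 tested were called higher and 14 lower by limma, with 57 log2 fold changes below 0 and a median of -0.099. The shares called, 0% higher and 18.2% lower, stand beside 14.4% and 13.1% of all genes. The cytosolic family had 15 and 1 of 90, and a median of 0.13. That difference between the families was not tested. The mitochondrial count of falls was 6, 5 and 5 of 77 without shGDF11 replicates 1, 2 and 3. In these fits 8.49%, 7.02% and 7.59% of all genes were called lower. On the TPM scale 2 were called higher and 7 lower, with a median of -0.011, beside 16.7% and 8.53% of all genes.

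**Figure D5:**
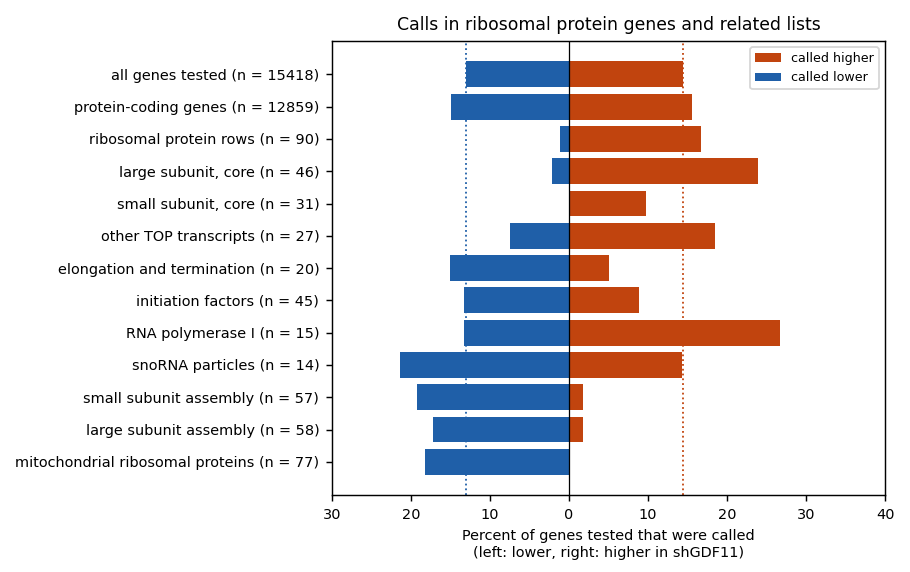
Percent of tested genes called lower (left, blue) and higher (right, orange) in shGDF11, for all genes, the ribosomal protein genes and related lists, with dotted lines at the 14.4% and 13.1% of all genes. The ribosomal protein rows have 16.7% to the right and 1.11% to the left, and the lists of assembly factors and mitochondrial ribosomal proteins extend mainly to the left.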

How the data were processed

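RNA-seq of 3 shGDF11 and 3 control libraries was analysed from a deposited table of FPKM values, which the authors computed for 54532 genes. The submitters' processing notes list featureCounts 1.5.0-p3, HISAT2 2.0.5 and CASAVA 1.8, with mm10 and GRCm38 as builds, and give no roles. For the annotation release and the use of strand the answer is not given in the sources used here. Per the file header the table also holds each gene's length, used to recover reads: FPKM times length was a whole multiple of 1 read within 0.05 for 100% of values. The test, in R 4.3.3, was the two-sided moderated test of limma 3.58.1 (eBayes, trend in the variance) on log2(FPKM + 0.5) for genes averaging 0.5 FPKM or more, with Benjamini-Hochberg adjustment over 15418 genes. An exact permutation test of 3 against 3 could reach no p below 0.1. The members and gene lists were chosen with earlier results of these data known. Named were a panel of 40 genes by role, the 6 largest rises and falls among called members of at least 5 FPKM without overlap, the 3 highest members and up to 3 genes per list by p. Further called members and Rpl23a, Rpl9-ps6, Rps12, Rps29, Rpl7a, Rps28, Rpl24, Rpl17, Rps27rt and Rps19bp1 were named after their values were seen. On reads simulated from the control means over 15422 genes, 35 of 96 changes of 1.5-fold (36.5%) and 77 of 96 of 2-fold (80.2%) were called, with 10 false calls. Every simulated gene had the same dispersion (0.00591), whereas the spread of the real libraries differs between genes. These rates therefore need not hold for the real data. The pseudocount, filter, scaling, variance model, library weights, block and each library were varied. Promoters and transcripts came from RefSeq (GRCm38.p6) and GENCODE M21 (GRCm38). A few genes that entered the tests and counts are not reported here by name.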

Additional observations from a re-analysis of the deposited data

How the results depend on the processing

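Against 15 rises, there were 24 after rescaling to TPM, 5 with no filter on low values, 24 with protein-coding genes only, 26 by limma voom on recovered reads (which called 3 lower: Rps14, Rpl34 and Rpl9-ps6), 30 with array weights and 4 with the replicate block. Leaving out 1 library gave 1 to 25 rises and 1 to 3 falls, the 3 (Rpl23a, Rpl34 and Rpl9-ps6) without control replicate 3, with a median log2 fold change of 0.041 (without control replicate 2) to 0.14. Under TPM the median was 0.22, that of all genes 0.094, and 66.2% of called genes were higher against 52.4%. TPM divides by the FPKM total of each library, which in control replicate 1 held 42549 FPKM of small RNA genes. A fit without a library pools the spread of the rest. Deviations of libraries with the same number had correlations of 0.015, 0.015 and -0.052 over all genes, so the numbers were not taken as pairs.

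Some log2 fold changes near 0 changed sign. After rescaling to TPM Rplp2 was at 0.056, Rps27a at 0.081 and Rps27l at 0.059. With TMM scaling Rps3 was at -0.0045 and by voom at -0.0065. With array weights Rpl36al was at 0.087, Rps27a at 0.13 and Rps28 at 0.097, and with the length trend removed Rplp2 was at 0.011 and Rps27a at 0.035. Over the 6 fits that each left out 1 library, values crossed 0 in these genes: -0.043 to 0.11 for Fau, -0.088 to 0.36 for Rpl17, -0.014 to 0.57 for Rpl24, -0.27 to 0.13 for Rpl36al, -0.043 to 0.14 for Rpl39, -0.21 to 0.023 for Rpl39l, -0.0091 to 0.82 for Rpl7a, -0.0032 to 0.067 for Rplp0, -0.22 to 0.037 for Rplp1, -0.088 to 0.053 for Rplp2, -0.22 to 0.38 for Rps27a, -0.073 to 0.046 for Rps27l, -0.075 to 0.42 for Rps27rt, -0.43 to 0.31 for Rps28, -0.033 to 0.034 for Rps3 and -0.015 to 0.11 for Rps4x. The cause was not tested. The planned fits with edgeR and DESeq2 were not run, since the deposited unit is FPKM.

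Depth limited the lowest members most: Rpl3l rested on 17 to 41 reads. The floor of 3 reads is 0.180 to 0.191 FPKM for a gene of 1 kb.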

Other observations

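The table also lists 290 rows of ribosomal protein pseudogenes outside the protein-coding biotype, of which 68 passed the filter on low values. Of these, 3 were called higher and 4 lower by limma, with 34 log2 fold changes above and 34 below 0. Their summed level was 1648, 1474 and 1701 FPKM in control replicates 1, 2 and 3 and 1800.5, 1740 and 1745 FPKM in shGDF11. Each shGDF11 library thus lay above each control. The summed FPKM of the 94 rows overlapped between groups, with control replicate 1 at 16579 and shGDF11 replicate 3 at 16526. The share of reads that a gene and its near-identical copies split between them was not tested.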
